A study of Mus musculus with 4 samples.

Results

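The mitochondrial genome carries the genes of 13 subunits of the respiratory complexes, and 10 of these were described here: the complex I subunits mt-Nd1, mt-Nd2, mt-Nd3, mt-Nd4 and mt-Nd5, the complex III subunit mt-Cytb, the complex IV subunits mt-Co1, mt-Co2 and mt-Co3, and the complex V subunit mt-Atp6. They were taken by name, and all 10 were present among the 32285 genes counted in each of the 4 samples. The samples were single lung cryosections of 10 µm from C57BL/6J mice, labelled as upper pulmonary branches. The Vaped (V) group was 1 male and 1 female that breathed Peach Ice 70VG/30PG e-vapor, generated with JUUL pens, in a chamber 4 h per day on 5 days per week for 9 weeks, from an age of 6 to 8 weeks. The Non-Vaped (NV) group was 1 male and 1 female without e-vapor. Each section was placed on a Visium slide, where every barcoded spot captures polyadenylated RNA of several cells and each captured molecule is counted once by its unique molecular identifier (UMI).

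Respiratory complexes I, III and IV pass electrons to oxygen and pump protons across the inner mitochondrial membrane, and complex V uses the gradient to make ATP. Their subunits come from both genomes, with the catalytic cores of complexes I, III and IV containing the mitochondrially encoded proteins. Cardiac muscle and brown adipose tissue are packed with mitochondria, whereas most lung cells hold fewer. In mice, cardiac muscle also sheathes the pulmonary veins, and adipose tissue lies around the large airways and the heart.

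All 10 genes lie on the same strand of the mitochondrial chromosome, and their transcripts are cut out of 1 long precursor and polyadenylated. In the GENCODE vM21 annotation of GRCm38 they are single exons without introns, from mt-Nd1 at chrM:2751-3707 to mt-Cytb at chrM:14145-15288. The last 30 annotated bases are printed for the 5 genes on which the make-up of the mitochondrial RNA turns or whose stop codon is incomplete. These bases lie near the poly(A) tail by which the slide captures the RNA. For mt-Co1 the tail need not start at the annotated end, since the next gene, mt-Ts1, lies on the opposite strand. Capitals mark the stop codon, or the lone T of a stop codon that polyadenylation completes.
mt-Co1 (chrM:5328-6872, plus strand): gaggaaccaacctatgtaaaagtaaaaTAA
mt-Atp6 (chrM:7927-8607, plus strand): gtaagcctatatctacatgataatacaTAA
mt-Co3 (chrM:8607-9390, plus strand): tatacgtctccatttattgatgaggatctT
mt-Nd4 (chrM:10167-11544, plus strand): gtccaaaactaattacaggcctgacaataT
mt-Cytb (chrM:14145-15288, plus strand): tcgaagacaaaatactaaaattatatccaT
The last annotated base of mt-Atp6 is the first of mt-Co3. The other members, mt-Co2 (chrM:7013-7696), mt-Nd2 (chrM:3914-4951), mt-Nd3 (chrM:9459-9806), mt-Nd5 (chrM:11742-13565) and mt-Nd1, end in a complete stop codon. Nuclear pseudogenes hold close copies of several members: mt-Atp6, mt-Co2 and mt-Co3 matched an annotated pseudogene at 100% identity over 678, 681 and 783 bases, and mt-Nd4 matched 1 over its first 876 bases. The last 483 bases of mt-Co1 matched another at 99.8%, and mt-Nd3 matched a further pseudogene at 99.7% over 345 bases. More distant copies were found of mt-Nd2 (96.7% over 510 bases), mt-Nd5 (95.2% over 954 bases) and mt-Cytb (92.9% over 1142 bases). None of these pseudogenes had a row in the count tables, and how reads matching both were assigned could not be checked, so the counts of those members are uncertain to that extent.

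The sections differed widely in size and content. Below, values of single sections are listed in a fixed order, NV male, NV female, V male, V female. In this order they comprised 842, 473, 1565 and 2053 spots covered by tissue, with 9386470, 6957392, 11880468 and 34308556 UMIs. Markers of lung cell types were counted in every section, but the V male section held only 279 UMIs of 8 cardiac muscle genes, against 131728, 103782 and 280203 in the others. Its club cell markers were low too, at 0.0303% of UMIs outside the mitochondrial genes, against 1.42%, 0.249% and 1.42% in the others. In the V male, 4 of 6 ciliated cell markers (Foxj1, Tmem212, Ccdc153 and Fam183b) were at 0. The ciliated list as a whole was not low there, at 0.0190% of UMIs outside the mitochondrial genes, against 0.0160%, 0.00974% and 0.0269% in the others. Because cardiac muscle and fat were unequally present, spots were divided by the share of their UMIs, outside the mitochondrial genes, that fell on cardiac or adipose markers. Spots with at least 2% on the cardiac list were called cardiac-rich, those below that with at least 0.5% on the adipose list adipose-rich, and the rest lung spots. The adipose list was Ucp1, Cidec, Elovl3, Otop1, Slc36a2, Cox8b, Adipoq, Plin1 and Plin4. Of these, Ucp1 and the complex IV isoform Cox8b encode mitochondrial proteins, and Cox8b is also an isoform of heart and skeletal muscle. Cox8b held 3664 of 6762 list UMIs in the NV male and 4321 of 16360 in the NV female. Of 118689 in the V female, Cox8b held 44873 and Ucp1 29484. Adipose-rich spots were thus picked in part on nuclear transcripts of mitochondrial proteins, and the part of this in their values was not tested. Nor did the list mark fat alone. In the NV male, 3299 of its UMIs lay in cardiac-rich and 667 in adipose-rich spots. Of Cox8b in that section, 1148 UMIs lay in lung and 75 in adipose-rich spots, and the rest in cardiac-rich spots. By section there were 168, 49, 0 and 158 cardiac-rich spots and 13, 42, 0 and 193 adipose-rich spots. The limits divide a range: within 25% of the cardiac limit, 17 NV male, 4 NV female and 19 V female spots lay below it, and 16, 3 and 29 above it. Within 25% of the adipose limit, among spots that were not cardiac-rich, 7 NV male, 10 NV female and 42 V female spots lay below it, with a median mitochondrial share of 14.7%, 8.15% and 10.4%, and 7, 8 and 28 above it, with 13.6%, 12.6% and 11.5%. Lung spots just under the adipose limit thus had a share near that of the spots just over it in the NV male and V female.

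The 10 genes together took 10.9% (NV male), 9.67% (NV female), 5.07% (V male) and 10.3% (V female) of all UMIs in a section. The V male section was thus the low one, while the V female lay between the NV animals. By the median over spots the values were 8.61%, 6.33%, 5.31% and 6.28%. There the V female lay just below both NV animals (exact permutation test, two-sided p = 0.33, the smallest that 2 against 2 allows). In lung spots the shares were 7.74%, 5.44%, 5.07% and 6.05%, so the NV male section was now the high one and the remaining 3 lay close together. Cardiac-rich spots were far above this level, with 22.1%, 19.5% and 19.7% of UMIs in the 3 sections that had them. Adipose-rich spots were intermediate, with 14.2%, 10.9% and 16.1%. Fewer mitochondria-rich cells and less mitochondrial RNA per cell cannot be told apart in spots that mix cells.

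**Figure D1:**
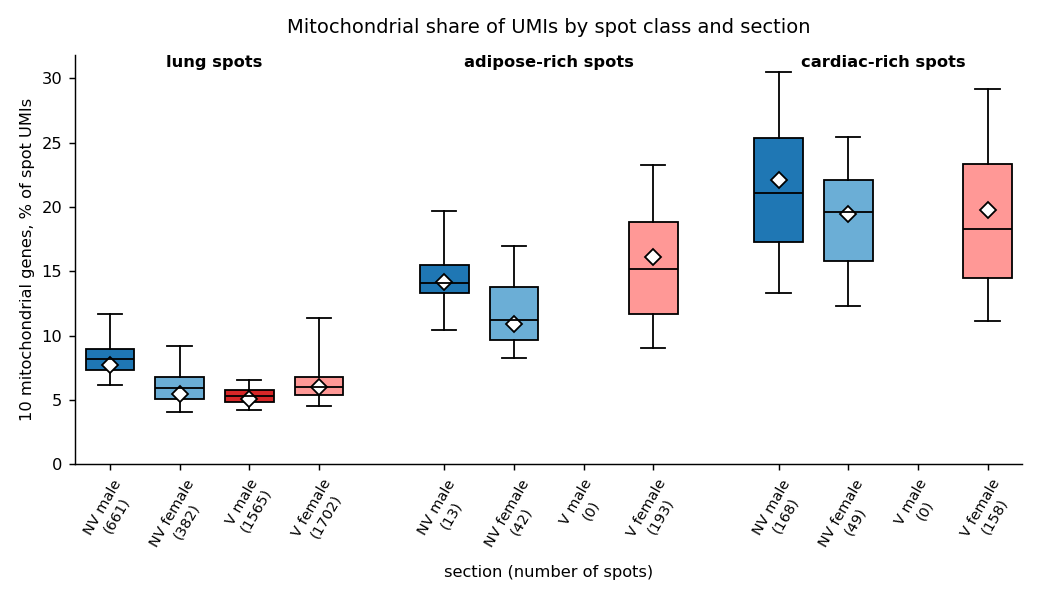
Share of each spot's UMIs on the 10 mitochondrial genes (y axis, percent) by spot class and section, with the number of spots under each name. Boxes span the quartiles with the median as a line, whiskers the 5th to 95th percentiles, and diamonds the share of the summed UMIs. Lung spots sit near 5 to 8%, cardiac-rich spots near 20%, and the V male section has no spot in either rich class.

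Between single lung spots the share ran from a 5th percentile of 4.24% to a 95th of 6.60% in the V male, and from 4.54% to 11.4% in the V female. Counting error accounts for part of this spread: the standard deviation over spots was 4.45, 4.50, 2.39 and 6.20 times the root of the mean counting variance by section. The V male lung was the most even section. Nearly every spot held UMIs of each member. The exception was mt-Nd5, the longest member, with no UMI in 34, 28, 125 and 102 spots.

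Levels of the members differed widely from each other although they derive from 1 precursor. As CPM (UMIs scaled to 1e6 in all) per kilobase of gene in lung spots, the ATP synthase subunit gene mt-Atp6 reached 18495, 13211, 13397 and 14888, and the complex IV gene mt-Co3 reached 17406, 12757, 9753 and 15027. These 2 genes ranked highest in each section. They were followed by mt-Co2 (8899 to 13936), and then, in differing order, by mt-Nd3 (5532 to 9045), mt-Co1 (5377 to 8683) and mt-Cytb (4698 to 6719). The lowest member was mt-Nd5, a proton-pumping subunit of complex I, at 378, 240, 284 and 272. Capture at the 3' end need not scale with gene length, so these values per kilobase order the members only on this scale. Of the 3 remaining mitochondrial protein genes, mt-Nd6, the only one on the opposite strand, was at 10.5 to 19.6. mt-Atp8 and mt-Nd4l, which overlap mt-Atp6 by 43 bases and mt-Nd4 by 7 bases and share their mRNAs, were at 759 to 1041 and 339 to 539.

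Cardiac-rich and lung spots were compared to see how the mitochondrial transcripts followed muscle inside the sections. All 10 members were higher in cardiac-rich spots, against 23.9% of all 13200 genes tested that were called higher (edgeR quasi-likelihood test on UMIs summed per section and class, section as a block, 3 sections, Benjamini-Hochberg adjusted p below 0.05). As a share of UMIs the sum of the members was 2.85 (NV male), 3.58 (NV female) and 3.26 (V female) times the lung level. In the fit, whose TMM scaling sets the bulk of genes near 0, the median log2 fold change of the members was 2.24, beside -0.03 over all genes. The catalytic subunit mt-Co1 changed most, with a log2 fold change of 2.40 (SE 0.20, adjusted p = 5.0e-08 by edgeR), and mt-Atp6 least, with 1.91 (SE 0.19, adjusted p = 4.2e-07 by edgeR).

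mt-Co1 took 1.34%, 0.903% and 0.831% of UMIs in lung spots of the NV pair and the V female, and 4.19%, 3.78% and 3.01% in their cardiac-rich spots. mt-Nd2, a membrane subunit of complex I, took 0.551%, 0.398% and 0.553% in lung and 1.82%, 1.63% and 1.78% in cardiac-rich spots. mt-Atp6 took 1.26%, 0.900% and 1.01% in lung and 2.76%, 2.50% and 2.82% in cardiac-rich spots. The classes did not overlap for any of these 3 genes. The log2 fold changes of the other 7 members lay between 2.08 (mt-Nd5) and 2.31 (mt-Co3). The 3 genes outside the list, mt-Nd4l, mt-Atp8 and mt-Nd6, rose as well, by 2.58, 2.47 and 2.28 on the log2 scale. Genes of other marker lists moved with the members. All 6 smooth muscle markers and all 7 tested genes of the adipose list were higher in cardiac-rich spots. All 6 alveolar type 1, 6 alveolar type 2 and 6 endothelial markers were lower. The part of these lists in the result was not tested.

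In adipose-rich spots all 10 members were also higher than in lung spots, against 17.8% of 13762 genes called higher (same test, NV female and V female only, since the NV male had fewer than 20 such spots). The summed share was 2.01 (NV female) and 2.66 (V female) times the lung level. The median log2 fold change was 1.63, beside -0.10 over all genes, with the range from 1.43 in mt-Nd5 (SE 0.19, adjusted p = 0.00037 by edgeR) to 1.79 in mt-Cytb (SE 0.27, adjusted p = 0.00070 by edgeR). mt-Cytb, the electron-carrying subunit of complex III, took 0.572% and 0.627% of UMIs in lung spots of the NV and V females and 1.23% and 1.82% in their adipose-rich spots. Markers of other tissues moved here as well: 5 of 8 cardiac muscle markers were higher (median log2 fold change of the 8 markers 0.54), and all 6 alveolar type 1, 6 alveolar type 2 and 6 endothelial markers were lower. Their part in the result was not tested. With 2 sections the fit leaves 1 residual degree of freedom, and without the section block mt-Nd1 and mt-Nd2 miss the threshold (adjusted p = 0.051 and 0.0501 by edgeR).

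The fat cell markers of the adipose-rich spots differed between the females, with 1 section per group and no test. Ucp1, the uncoupling protein that defines thermogenic fat, was at 2724 CPM in adipose-rich spots of the V female and at 3.40 CPM, or 4 UMIs, in those of the NV female. Elovl3, another gene of brown fat, was at 177 against 3.40 CPM. The general fat cell genes went the other way, with Adipoq at 1140 against 2697 CPM and Plin1 at 441 against 793 CPM. Slc36a2, an amino acid transporter of fat cells that is also used as a brown fat marker, was lower too, at 291 against 347 CPM. The brown fat genes of the list were thus not all higher in the V female. The part of these differences in the mitochondrial share of the adipose-rich spots (16.1% in the V and 10.9% in the NV female) was not tested.

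**Figure D2:**
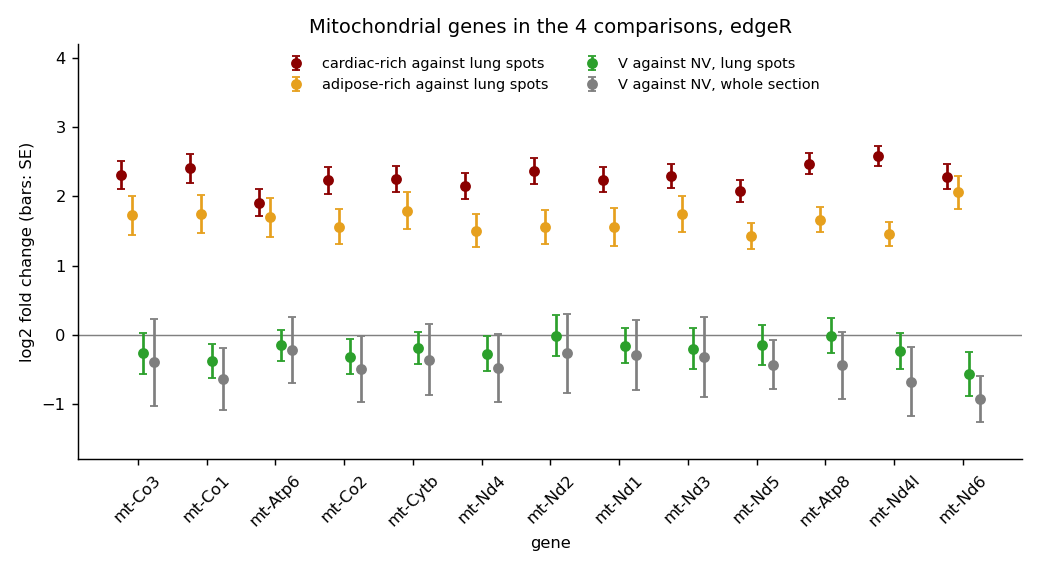
Log2 fold changes of the 13 mitochondrial protein genes (y axis) in the 4 comparisons by edgeR, with bars of 1 SE. Cardiac-rich and adipose-rich spots lie above lung spots for each gene, with the cardiac-rich values between 1.91 and 2.58, whereas the V against NV values of the 10 members lie between -0.63 and -0.01.

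The nuclear genes of the same complexes were followed from a list of 77 subunit genes, of which 76 were tested. All 76 were higher in cardiac-rich spots, with a median log2 fold change of 2.02, and 75 of 76 were higher in adipose-rich spots, with a median of 1.74. The medians of the members were 2.24 and 1.63. Among the complex I genes, Ndufa5 and Ndufs1 rose by 2.71 and 1.95 on the log2 scale in cardiac-rich spots. All 4 complex II genes, none of which is mitochondrially encoded, rose too, including Sdhb of the iron-sulphur subunit by 2.40.

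In complex IV the isoforms differed. Cox6a2 and Cox7a1, the forms of heart and skeletal muscle, had the greatest changes of the nuclear list in cardiac-rich spots, at 3.40 (SE 0.17) and 3.45 (SE 0.20) on the log2 scale. In lung spots Cox6a2 was at 563, 468, 35.5 and 273 CPM by section, and in cardiac-rich spots at 3264, 3669 and 2238 CPM in the 3 sections that had them. It did not pass the test in adipose-rich spots (0.37, SE 0.16, adjusted p = 0.097 by edgeR). There, Cox6a1 and Cox8a, the isoforms most tissues use, had the smallest p of the complex IV genes, with log2 fold changes of 2.16 and 2.02. Cox6a1 was at 1409 and 2822 CPM in adipose-rich spots of the NV and V females, against 507 and 752 CPM in lung spots.

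Complex V genes rose by a median of 2.03 on the log2 scale in cardiac-rich and 1.44 in adipose-rich spots. Atp5g1, 1 of the genes of the proton-conducting c subunit, rose by 2.92 in cardiac-rich spots but by 0.53 (SE 0.16, adjusted p = 0.029 by edgeR) in adipose-rich spots. Its CPM in adipose-rich and lung spots was 378 and 301 in the NV but 208 and 238 in the V female, so its direction on this scale differed between these sections. mt-Atp6, whose protein faces the c subunits in the proton channel, rose by 1.70 in adipose-rich spots.

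Factors that copy, transcribe and process mitochondrial nucleic acids were followed as well. Of 25 such genes, 13 were higher in cardiac-rich spots (23.9% of all genes) and 16 in adipose-rich spots (17.8% of all genes), none was lower, and their median log2 fold changes were 0.54 and 0.82. Slirp, an RNA-binding protein that stabilises mitochondrial mRNAs, rose by 0.94 and 1.21. Fastk rose by 1.43 in cardiac-rich spots, and the transcription factor Tfb2m by 1.27 in adipose-rich spots. Of 6 regulators of mitochondrial biogenesis, Ppargc1a, Ppargc1b and Esrra rose in both, Ppargc1a by 2.48 in cardiac-rich and 1.67 in adipose-rich spots, though its counts were low, with 49, 41 and 96 UMIs in the cardiac-rich spots of a section. The other 3, Nrf1, Gabpa and Pprc1, did not pass the test in either comparison, with log2 fold changes of -0.36, 0.29 and -0.04 in cardiac-rich and -0.41, 0.10 and -0.32 in adipose-rich spots.

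The share climbed over several bins of marker content on both sides of the limits. Bins of the cardiac list kept adipose-rich spots, whereas bins of the adipose list left out cardiac-rich ones. In the NV male, spots with 0.1 to 0.5% of UMIs on the cardiac list had 6.28% mitochondrial UMIs, those with 1 to 2% had 10.7% and those with at least 4% had 23.6%. The corresponding values in the V female were 8.28%, 13.1% and 22.1%, and in the NV female the lowest and highest of these bins gave 5.96% and 20.2%. With adipose markers, V female spots went from 6.64% below 0.05% on the list to 5.58% at 0.1 to 0.2% and 19.0% at 1% and above, and NV female spots from 5.84% at 0.1 to 0.2% to 10.5% at 0.5 to 1%.

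**Figure D3:**
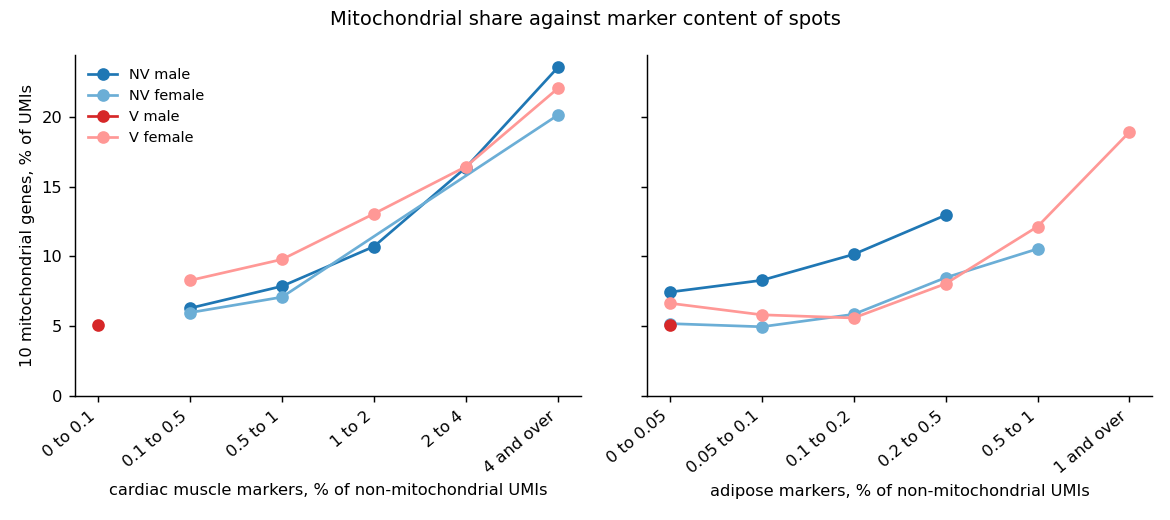
Mitochondrial share of UMIs (y axis, percent) in spots binned by cardiac (left) and adipose (right) marker content (x axis, percent of UMIs outside the mitochondrial genes), for bins of at least 20 spots. Cardiac bins keep adipose-rich spots, while adipose bins leave out cardiac-rich ones. The share climbs to 20.2 to 23.6% at the highest cardiac content, and to 19.0% at the highest adipose content in the V female, while nearly all V male spots fall in the lowest bins.

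Across single spots, Spearman's rho of the mitochondrial share with the cardiac list was 0.71 (842 spots), 0.59 (473 spots), -0.12 (1565 spots) and 0.42 (2053 spots). With the adipose list, which includes Ucp1 and Cox8b of mitochondrial proteins, it was 0.52, 0.63, -0.15 and 0.52. Most NV male UMIs of Cox8b lay in cardiac-rich spots, so the 0.52 of that section does not describe fat alone. With the alveolar type 1 list, genes of the thin cells of gas exchange, rho was -0.53, -0.45, -0.11 and -0.54. The V male, whose spots hold almost no cardiac or fat UMIs, had values between -0.15 and -0.11. In lung spots alone, a setting chosen after seeing the data, rho was 0.48, 0.47, -0.12 and 0.26 with the cardiac list, 0.26, 0.37, -0.15 and 0.20 with the adipose list and -0.23, -0.07, -0.11 and -0.26 with the alveolar type 1 list, so most of these relations were weaker within the class. Spots of a section share a library and their depth, so these values describe the sections.

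Depth itself moved with the share. In lung spots rho with the UMIs per spot was -0.58, -0.66, -0.55 and -0.47. From the shallowest to the deepest of 4 equal groups of lung spots, the share went from 9.55% to 6.89% (NV male), 7.27% to 4.67% (NV female), 5.82% to 4.68% (V male) and 7.48% to 5.75% (V female). All 4 sections thus had the higher share in their shallow lung spots. Over all spots the relation was weaker in both females (-0.11 in NV, -0.01 in V), where cardiac-rich spots were deep, with medians of 30909 and 32498 UMIs. Its direction in the females depended on the measure, since Pearson's r was 0.17 and 0.24 and rho after thinning to 3000 UMIs was -0.03 and 0.07. In the NV male, cardiac-rich spots had a median of 6023 UMIs, below the 10095 of its lung spots, and yet the highest share, 22.1%.

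**Figure D4:**
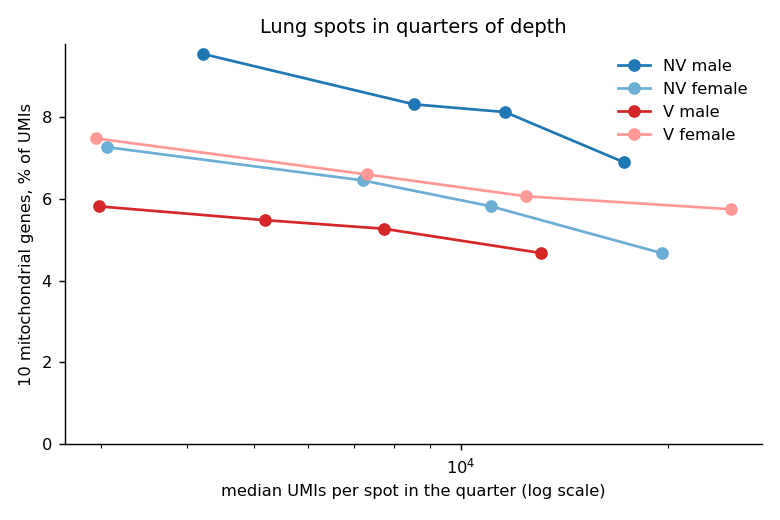
Mitochondrial share of UMIs in lung spots (y axis, percent) in 4 equal groups of spots by depth per section, against the median UMIs per spot of each group (x axis, log scale). The line falls in each section, for example from 9.55% to 6.89% in the NV male.

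The members moved together over spots. For this, each gene was taken as its UMIs per UMI outside the mitochondrial genes. Over the 45 pairs of members, the median rho was 0.77, 0.73, 0.27 and 0.74 by section. In lung spots alone it was 0.56, 0.57, 0.27 and 0.57. Such a common divisor can itself raise rho, and its part was not tested. The summed members were compared on the same scale with 5558 other genes seen in at least 20% of spots of each section. The 1 most like the members by mean rho was Gm42418, a gene that overlaps ribosomal RNA sequence, with 0.65, 0.35, 0.40 and 0.35. The next were Atp5b, Lpl, Cox4i1, Atp5e and Cox6c, of which 4 are respiratory chain genes and Lpl is lipoprotein lipase. Their rho was 0.43 to 0.57 in the 3 sections with cardiac muscle and -0.05 to 0.06 in the V male. In lung spots alone it was 0.09 to 0.26 in those 3 sections, while Gm42418 was at 0.67, 0.51, 0.40 and 0.50. The genes least like the members were Tmsb4x, Inmt, Hopx, Ager, Igfbp2 and Cldn18. Their rho was from -0.40 to -0.65 in those 3 sections and -0.08 to -0.16 in the V male, with -0.01 to -0.40 in lung spots of the 3 sections. Ager, Hopx and Cldn18 mark alveolar epithelium.

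The study asked what vaping changed in the lung. In the V against NV comparison of whole sections no member passed the test, and neither did any of the 14570 genes tested (0% called by edgeR; 248 genes had an unadjusted p below 0.05, and DESeq2 called 8). With the V male or the V female left out, 21 and 811 genes were called, none of them a member. The members' log2 fold changes lay between -0.63 in mt-Co1 (SE 0.45) and -0.22 in mt-Atp6 (SE 0.48). The summed share was 10.3% ± 0.850 (SD, n = 2) in NV sections against 7.67% ± 3.68 (SD, n = 2) with vaping, a difference of -2.60 percentage points (exact permutation test, two-sided p = 0.67, where the smallest p that 2 against 2 allows is 0.33). That difference rests on the V male: without it the V female differs from the NV mean by 0.0064 percentage points. The summed UMIs on the cardiac list, near 0 in the V male alone, moved with it, and their part in the result was not tested.

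In lung spots, too, no member and none of 14387 genes passed (0% called by edgeR; 364 genes had an unadjusted p below 0.05, and DESeq2 called 8). With the V male or the V female left out, 367 and 1372 genes were called, again no member. The log2 fold changes of the members lay between -0.38 in mt-Co1 (SE 0.24) and -0.01 in mt-Nd2 (SE 0.29). The summed share differed by -1.03 percentage points (exact permutation test, two-sided p = 0.67), and here the NV male decided the direction, since without it the difference was 0.121 points. Lung spots of the sections still differed in cardiac content. The cardiac list took 0.699%, 0.513%, 0.00247% and 0.415% of their UMIs outside the mitochondrial genes. Club cell markers took 1.65%, 0.340%, 0.0303% and 1.79% of the same UMIs. The part of either difference in the values was not tested. In spots with under 0.5% on the cardiac and under 0.2% on the adipose list, a subset chosen after seeing the data, the shares were 5.98% (51 spots), 4.71% (159 spots), 5.07% (1564 spots) and 5.51% (1336 spots). There the NV mice spanned both V mice. In lung spots of 5000 to 15000 UMIs, also chosen afterwards, the shares were 8.18%, 6.02%, 5.14% and 6.35%.

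Few single members kept V and NV sections apart. As a share of UMIs over the whole section, mt-Co1 was 1.96% and 1.75% in the NV male and female and 0.889% and 1.49% in the V male and female. It and mt-Nd5 (0.0937% and 0.0756% against 0.0517% and 0.0739%) were the 2 members lower in both V sections, against 14.4% of all genes. In lung spots only mt-Co1 was lower in both, at 1.34% and 0.903% against 0.889% and 0.831%, against 17.0% of genes. The 76 nuclear subunit genes had no call either, with a median log2 fold change of -0.12 over whole sections and 0.05 in lung spots.

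The make-up of the mitochondrial RNA, each gene's percentage of the UMIs of all 13 genes, varied between sections as well. These percentages sum to 100, so 1 gene's higher share lowers those of others. mt-Atp6 made up 14.5% and 14.7% in the NV male and female and 17.9% and 16.1% in the V male and female, and mt-Nd1 5.71% and 5.31% against 6.05% and 5.94%, so both were higher in the V sections. mt-Co1 was at 17.9% and 18.0% against 17.4% and 14.4%, lower in both. An exact permutation test gave a two-sided p of 0.33 for each of these genes, the smallest possible, and other members overlapped. A gene without any group difference would be kept apart, in either direction, at that same rate of 0.33, here and in lung spots. These separations are therefore not read as a shift with vaping. In lung spots alone mt-Atp6 was at 16.2% and 16.5% against 17.9% and 16.7%, so the females differed by less than over whole sections. mt-Nd1 (5.68% and 5.57% against 6.05% and 5.84%) and mt-Nd2 (7.08% and 7.28% against 7.43% and 9.10%) were higher in both V sections there as well, mt-Nd4 was lower in both (8.72% and 8.57% against 8.38% and 8.49%), and mt-Co1 overlapped.

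Between the V sections, mt-Co1 and mt-Co3 lay far apart. In lung spots mt-Co1 made up 17.2%, 16.5% and 17.4% of mitochondrial UMIs in 3 sections but 13.7% in the V female, whose share was also the lowest in cardiac-rich (15.2% against 18.8% and 19.3%) and adipose-rich spots (14.6% against 18.8% and 17.2%). mt-Co3 was the reverse, highest in the V female at 19.4% and lowest in the V male at 15.0%, with 17.5% and 18.3% in the NV mice. UMIs of mt-Co1 per UMI of mt-Co3 were therefore 0.983, 0.903, 1.16 and 0.705 in lung spots. The V sections held both extremes.

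The make-up also differed between spot classes. mt-Atp6 made up 16.2%, 16.5% and 16.7% in lung spots of the NV pair and the V female but 12.4%, 12.8% and 14.2% in their cardiac-rich spots, lower in 3 of 3 sections. mt-Co1 went from 17.2% to 18.8%, from 16.5% to 19.3% and from 13.7% to 15.2%, higher in 3 of 3. An exact paired permutation test over 3 sections gave a two-sided p of 0.25 for each gene, the smallest it can give. Depth and other cell markers differ between the classes too, and their part was not tested. In adipose-rich spots mt-Atp6 was near its lung share, at 16.6% against 16.5% (NV female) and 17.1% against 16.7% (V female).

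**Figure D5:**
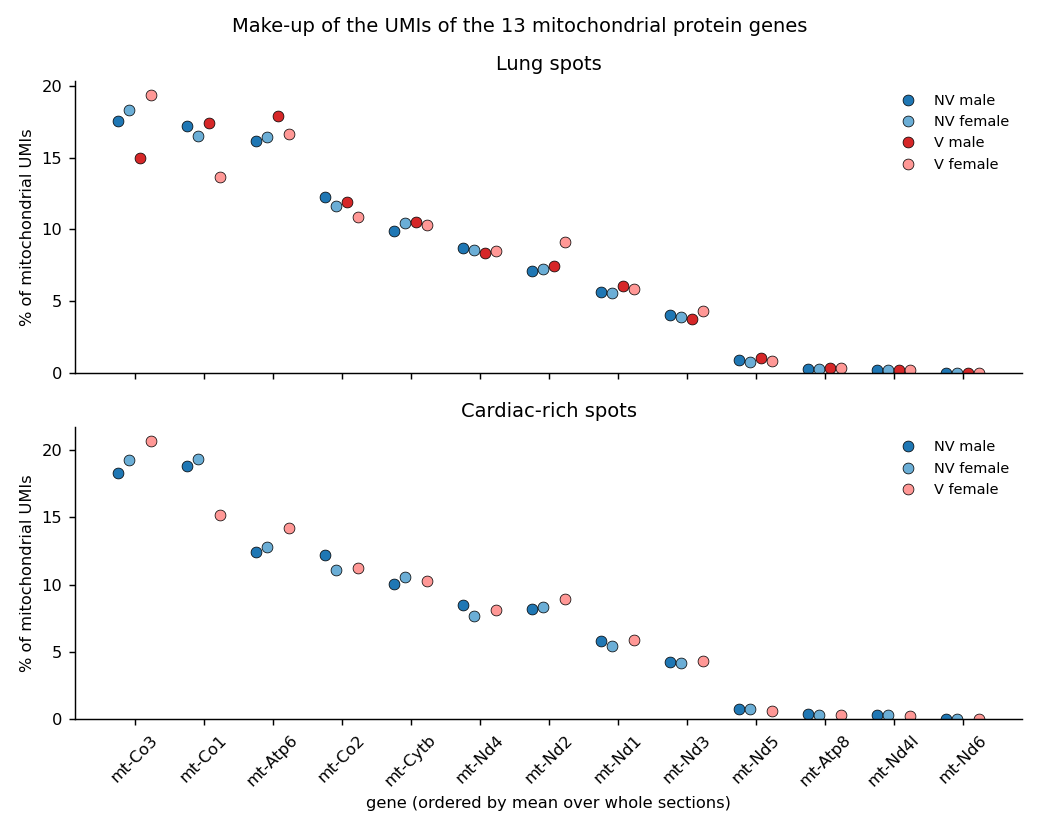
Percentage of the UMIs of the 13 mitochondrial protein genes that each gene takes (y axis) in lung spots (top) and cardiac-rich spots (bottom), 1 point per section. mt-Atp6 is lower in cardiac-rich spots (12.4 to 14.2%) than in lung spots (16.2 to 17.9%), and mt-Co1 is lowest in the V female in both.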

How the data were processed

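The authors aligned the reads with Space Ranger to mm10 (GRCm38) and deposited, for each section, a table of raw UMI counts, with genes in rows and spots under tissue in columns. Their later normalization in Seurat 4.0.3 is not part of these values. All 4933 deposited spots were used. Counts were taken as deposited, and depths are given with the sections. Spot barcodes mark slide positions, so sections share 277 to 1167 of them by design.

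The members and all gene lists were chosen with earlier results of these data known. Shares are percentages of UMIs. Spots were summed per section, or per section and class, with classes of at least 20 spots, and sums were tested with edgeR 4.0.16 (TMM scaling, filterByExpr, quasi-likelihood F test, Benjamini-Hochberg adjustment over all genes tested). The SE was the fold change divided by the root of F. The fits were tested on simulated data, in which sections varied less than in the V against NV fits and the seeded changes were larger than those of the members there. The simulation therefore does not show what changes the V against NV fits could find. Groups were V and NV from the labels, 2 mice each, with 1 section per mouse. Spot correlations are Spearman's rho. Positions come from GENCODE vM21, and pseudogene copies from blastn 2.17.0 against its transcripts, at 90% identity or more over at least 100 bases.

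The genes named were the 10 members, the 3 other mitochondrial protein genes, up to 3 called genes with the smallest p per nuclear list and comparison, and the 6 genes most and least like the members over spots. Nrf1, Gabpa and Pprc1, and single fat and ciliated cell markers, were named after their values were seen. Alternatives were DESeq2 1.42.0 and its size factors, scaling without mitochondrial genes, no filter, spots with at least 500 UMIs, each section left out, a replicate block, no section block, marker limits halved and doubled, the median over spots, Pearson's r and spots thinned to 3000 UMIs.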

Additional observations from a re-analysis of the deposited data

Results flagged for a closer look

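The share of UMIs on the 10 mitochondrial genes differed between V and NV in opposite directions in the sexes. Over whole sections, V minus NV was -5.80 percentage points in males (5.07% against 10.9%) and 0.607 points in females (10.3% against 9.67%). In lung spots it was -2.67 points in males (5.07% against 7.74%) and 0.610 points in females (6.05% against 5.44%). Of the 10 members taken singly as a share of UMIs, 8 had opposite signs in males and females over whole sections and 9 in lung spots, beside 50.4% and 50.8% of all genes tested. In each of these, V was below NV in males and above it in females, as in 15.6% and 19.9% of all genes. The members move together over spots, so these counts largely repeat the summed share. Each sex has 1 mouse per group, so the difference between sexes was not tested. The V male section held 0 cardiac-rich and 0 adipose-rich spots, and the part of this in the values was not tested.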

How the results depend on the processing

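All 10 members were called in cardiac-rich and adipose-rich spots in each alternative run, including spots with at least 500 UMIs, a setting added after seeing the data, except in adipose-rich spots without the section block, where mt-Nd1 and mt-Nd2 (log2 fold changes 1.67 and 1.63) missed the threshold. Doubled limits left too few NV female adipose-rich spots to fit, and leaving out a section left no residual degrees of freedom there. No member was called between V and NV in any alternative. Over all genes, DESeq2 called 8 in each V against NV comparison where edgeR called 0, and 2364 in adipose-rich spots (1585 higher, 779 lower) against 4830 by edgeR (2446 higher, 2384 lower), which became 2257 with no section block. The causes were not tested. Leaving out 1 section gave 0 to 811 called genes over whole sections (21 lacking the V male, 811 lacking the V female) and 0 to 1372 in lung spots (367 and 1372), where the lone mouse of a group is assumed to vary like the other group.

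Leaving out 1 section also moved the V minus NV share from -5.20 to 0.0064 points over whole sections and from -2.18 to 0.121 points in lung spots. Over whole sections the log2 fold changes without 1 section ran from -1.03 to 0.18 (mt-Nd1), -1.20 to 0.28 (mt-Nd2), -0.87 to 0.22 (mt-Atp6), -1.45 to 0.19 (mt-Co3), -1.27 to 0.23 (mt-Nd3) and -1.12 to 0.12 (mt-Cytb), while mt-Co1, mt-Co2, mt-Nd4 and mt-Nd5 kept their sign. In lung spots they ran from -0.43 to 0.16 (mt-Nd1), -0.34 to 0.27 (mt-Nd2), -0.60 to 0.038 (mt-Co2), -0.40 to 0.14 (mt-Atp6), -0.64 to 0.027 (mt-Co3), -0.47 to 0.13 (mt-Nd3), -0.54 to 0.050 (mt-Nd4), -0.46 to 0.25 (mt-Nd5) and -0.41 to 0.066 (mt-Cytb), while mt-Co1 kept its sign. The mean rho of the share with spot depth over the 4 sections, -0.27 over all spots (-0.11 by Pearson's r, -0.18 thinned), was -0.56 in lung spots alone, a setting chosen after seeing the data.

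The replicate numbers coincide with sex and do not mark pairs of animals. Deviations of same-numbered sections from their group means correlated at 0.49 over genes for whole sections and 0.23 for lung spots. With the replicate block, 0 members and 0 genes were called in either comparison, with 413 and 460 genes at an unadjusted p below 0.05.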
